A study of Mus musculus with 2 samples.

Results

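Itch that begins in the skin is carried to the spinal cord by small sensory neurons of the dorsal root ganglion (DRG), which pass the signal on with released peptides. The 10 genes described here encode the itch-linked peptides natriuretic polypeptide b (Nppb), somatostatin (Sst), neurotensin (Nts), gastrin-releasing peptide (Grp) and neuromedin B (Nmb), and the receptors Npr1, Npr2, Npr3, Grpr and Nmbr. They were chosen by name, and every non-control probe that carries one of these names was taken. This gave 14 probes of 56601 on the array, and 10 genes of 37008 gene names. DRG neurons of C57BL/6 mice were compared, with a single array each for Dock8-/- and Dock8+/- (1 array per genotype). Both genotypes carried the AND T cell receptor transgene, and the labels give a high level of interleukin-31 (IL-31, an itch-inducing cytokine) for Dock8-/- and a low level for Dock8+/-. The age of the mice, and whether several animals were pooled, are not given in the sources used here.

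Nppb is released by itch neurons and is read in the mouse spinal cord by neurons that carry Npr1, a receptor with its own guanylate cyclase. Npr2 is the related cyclase receptor for C-type natriuretic peptide, and Npr3 is a clearance receptor that takes natriuretic peptides up. Sst is made by the same class of mouse itch neurons as Nppb and dampens inhibitory spinal neurons. Nts is cut from a precursor that also yields neuromedin N. Grp and Nmb are mammalian relatives of bombesin, and Grpr and Nmbr are their preferred receptors. In the mouse, Grpr marks spinal neurons that relay itch.

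The probes, each of 60 bases and present as 1 spot on each array, were checked for what part of the message they read. The probe for Nts (transcript NM_024435, mm9, chr10:101944967-101945026) is shown whole because it reads the stretch that encodes neurotensin. Capitals mark the 2 pairs of basic codons in reading frame 3. The second pair follows 12 codons, and enzymes of precursor processing cut at this pair to free the end of the peptide.
Nts: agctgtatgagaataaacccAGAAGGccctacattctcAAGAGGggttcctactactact
The 5′ of the Nppb probes (NM_008726, chr4:147360489-147360548) is shown because it and a second probe 315 bases further 3′ read separate parts of the same transcript. Both read the same RNA on the same arrays, so they do not replicate the comparison of genotypes.
Nppb, 5′ probe: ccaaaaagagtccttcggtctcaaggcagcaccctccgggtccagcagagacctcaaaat

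Other probes hold a match to the polyadenylation hexamer AATAAA or ATTAAA, which lies near the 3′ end of most messages. For these, 30 bases around the match are shown, with the hexamer in capitals. The same letters occur in the Nts probe, inside its coding frame. They belong to the 3′ probe of Nppb (chr4:147361247-147361306), the probe of Sst (NM_009215, chr16:23889681-23889740), the probe of Nmb (NM_026523, chr7:88047120-88047179) and the most 3′ probe of Npr3 (NM_008728, chr15:11769666-11769725).
Nppb, 3′ probe: ttgccacaacatAATAAAcatagcgtattt
Sst: aattgaagactgtaaatacaaAATAAAatt
Nmb: ggtgaagtggtgAATAAAaatactgctctt
Npr3: ccaaatataacagtatgttctcATTAAAcg
Of all measured probes, 15.6% held such a hexamer, and their median log2 difference was 0.02, against 0.10 for those without it. The probes of the paralogs Npr1 and Npr2 overlap in the coding part of the cyclase receptors and are shown because their sequences are alike. Over 40 aligned bases, 34 were identical and are set in capitals.
Npr1 (NM_008727, chr3:90259171-90259664, a span of 494 bases): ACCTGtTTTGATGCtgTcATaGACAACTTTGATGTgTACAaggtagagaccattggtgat
Npr2, 5′ probe (NM_173788, chr4:43661226-43661285): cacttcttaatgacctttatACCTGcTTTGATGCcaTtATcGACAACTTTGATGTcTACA

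Intensities are processed spot signals on a linear scale, each with the error that the authors' extraction software attached to that spot. A probe is called measured where the software set its flag for a signal well above background in both samples, as it did for 9 of the 14 probes and 7 of the 10 genes. Log2 differences are Dock8-/- minus Dock8+/-, after each array was set to its 75th percentile, which was 145.6 for Dock8-/- and 303.8 for Dock8+/-. The error of a difference is propagated from the 2 spot errors. With 1 array per genotype there is no replicate, no test and no p-value, and a 2-fold difference is used only as a mark of size. Scaling adds 1.06 to the unscaled log2 ratio of every gene, and directions below are relative to the 75th percentile.

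**Figure D1:**
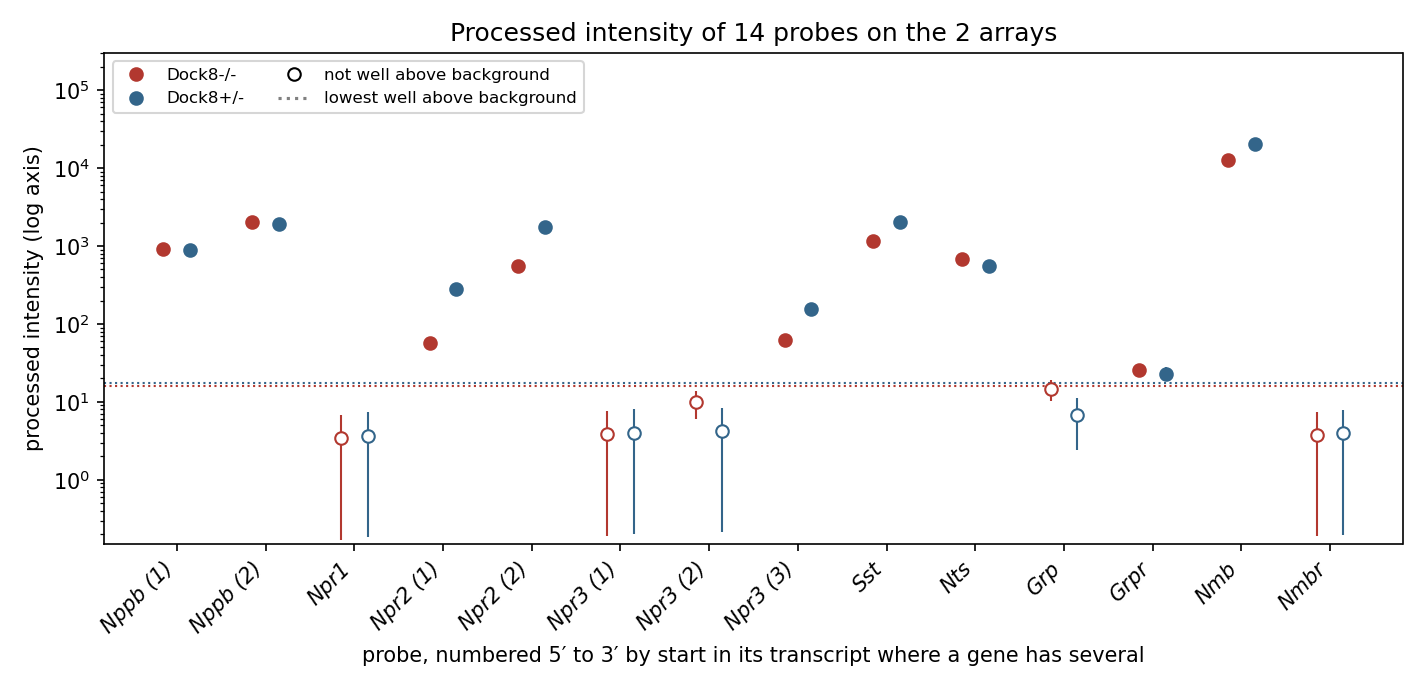
Processed intensity (vertical, log axis) of the 14 probes on the Dock8-/- array (red, left of each pair) and the Dock8+/- array (blue), with the spot error as bars (cut off near 0). Open points are not well above background, and Nppb and Nts are the bright probes whose unscaled intensity is not lower on the Dock8-/- array.

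Nppb, a transmitter of the itch neurons carrying the IL-31 receptor, was higher in the Dock8-/- sample on both of its probes relative to the 75th percentile, and lower on the scale of spike-in transcripts. Its 3′ probe had an intensity of 2041 ± 204 on the Dock8-/- array, against 1921 ± 192 on the Dock8+/- array. Unscaled, these values lay within each other's error, with a ratio of 1.06. After scaling the log2 difference was 1.15 ± 0.20, or 2.22-fold. The 5′ probe read 913 ± 91 in Dock8-/- and 902 ± 90 in Dock8+/-, with a scaled difference of 1.08 ± 0.20. The probes therefore differed from each other by 0.07. As an SD, their spread was 0.05. Over all genes with several measured probes, the pooled SD between probes of a gene was 0.61. The spot-to-spot SD for the difference of a single probe was 0.07.

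Nts had the largest difference of the 4 measured peptide genes. Its probe read 689 ± 69 on the Dock8-/- array, against 552 ± 55 on the Dock8+/- array, an unscaled ratio of 1.25. The scaled log2 difference was 1.38 ± 0.20, or 2.60-fold higher in the Dock8-/- sample (-0.47 on the spike-in scale). A larger difference was seen in 3.79% of all measured genes. For Nppb the same share was 6.53%.

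Sst and Nmb had lower intensities in Dock8-/- and differences within 1.3-fold after scaling. Sst read 1176 ± 118 in Dock8-/- and 2012 ± 201 in Dock8+/-. Its scaled log2 difference was 0.29 ± 0.20. Nmb, the brightest of the 14 probes, read 12724 ± 1272 in Dock8-/- and 20627 ± 2063 in Dock8+/-. Its scaled difference was 0.36 ± 0.20. Of all measured genes, 34.4% lay above Sst and 30.5% above Nmb.

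Grp was not measured. Its spot read 14.7 ± 4.4 in Dock8-/- and 6.79 ± 4.41 in Dock8+/-. The lowest signal well above background on any probe was 16.1 in Dock8-/- and 17.4 in Dock8+/-. The weaker flag of the software, positive and significant against the background, was set on both arrays. Neither spot was well above background, so no fold is given for Grp.

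Among the receptor genes, Npr2 was lower in the Dock8-/- sample on both of its probes. The brighter 3′ probe (chr4:43664035-43664094) read 557 ± 56 on the Dock8-/- array, against 1769 ± 177 on the Dock8+/- array. Its scaled log2 difference was -0.61 ± 0.20, or 1.52-fold lower. The 5′ probe, 678 bases upstream, read 57.0 ± 6.6 in Dock8-/- and 281 ± 28 in Dock8+/-, with a difference of -1.24 ± 0.22. The Npr2 probes thus shared a direction but differed by 0.64, and only the 5′ probe passed 2-fold (2.37-fold lower). As an SD, the spread of the Npr2 probes was 0.45. Over the 6234 genes with several measured probes, the pooled SD between probes of a gene was 0.61. Across 3793 transcripts with measured probes at least 100 bases apart, the most 3′ probe minus the most 5′ probe had a median of -0.11.

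Npr3, the clearance receptor, was measured by 1 of its 3 probes. That most 3′ probe read 62.5 ± 7.3 in Dock8-/- and 157 ± 16 in Dock8+/-, and its scaled log2 difference of -0.27 ± 0.22 was little larger than its error. Under normexp background correction the value was 0.04. The middle Npr3 probe (chr15:11772118-11772177) read 9.91 ± 3.94 in Dock8-/- and 4.25 ± 4.08 in Dock8+/-. A probe for a cDNA clone (AK040677, chr15:11832733-11832792) read 3.82 in Dock8-/- and 4.01 in Dock8+/-. Neither was well above background.

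Grpr was measured, but close to the floor. Its probe (NM_008177, chrX:159952638-159952697) read 25.6 ± 4.6 in Dock8-/- and 23.1 ± 4.7 in Dock8+/-, within each other's error unscaled. The scaled log2 difference was 1.21 ± 0.39, or 2.31-fold. Of all measured genes, 99.1% had a higher mean signal than Grpr. In the dimmest of 5 equal classes of measured genes, where Grpr lay, the median difference was 0.39 and 19.0% were at least 2-fold higher. Under quantile normalisation, loess, normexp and the authors' value table the Grpr value was below 1, at 0.97, 0.84, 0.84 and 0.98.

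Npr1 and Nmbr were at the bottom of the scale on both arrays. Npr1 read 3.42 in Dock8-/- and 3.66 in Dock8+/-, and Nmbr (NM_008703, chr10:14490303-14490362) read 3.75 in Dock8-/- and 3.96 in Dock8+/-. These are surrogate values that the software gives to spots without a signal above background. The Npr1 spot was thus dark although 34 of 40 overlapping bases were shared with the Npr2 probe, which gave a signal on both arrays.

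Read against all measured genes, 3 of the 7 measured members (Nppb, Nts and Grpr) exceeded Dock8+/- by 2-fold or more in the Dock8-/- sample, where the share over 18649 measured genes was 9.08%. At least 2-fold lower were 0 of 7, against 7.03% of all genes. The 7 had a median log2 difference of 0.36 and 5 of them lay above 0, while all measured genes had a median of 0.03 with 51.8% above 0. Counted by probe, 4 of 9 were at least 2-fold higher and 1 of 9 lower, against 11.8% and 7.06% of 27734 measured probes. In the brightest class of genes, where Nppb and Nmb lay, 5.01% were at least 2-fold higher. In the next class, which held Nts, Sst and Npr2, the share was 4.56%.

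**Figure D2:**
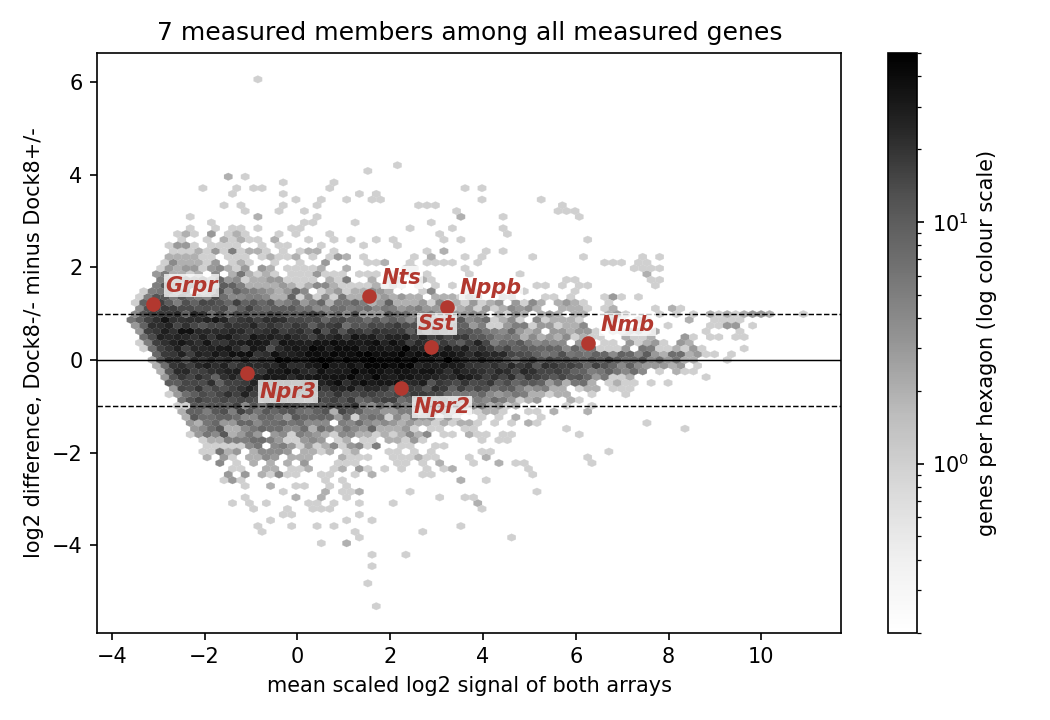
Log2 difference (vertical) against mean scaled log2 signal (horizontal) of 18649 measured genes as grey hexagons, with the 7 measured members in red and dashed lines at 2-fold. Nts and Nppb lie above the upper dashed line, with 3.79% and 6.53% of all measured genes higher still. Nmb and Sst lie inside the cloud, and Grpr at its dim end, where the cloud itself lies above 0.

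The differences between members do not depend on the factor chosen to scale an array. Nts exceeded Npr2 by 1.99 ± 0.29 on the log2 scale, a 3.96-fold change in their ratio between the arrays, the widest of the 21 pairs. Nppb exceeded Sst by 0.86 ± 0.29 and Nmb by 0.78 ± 0.29, more than the spot error. That error leaves out the pooled SD of 0.61 between probes of a gene, a spread that enters for each gene of a pair. Nts and Nppb differed by 0.23 ± 0.29, within the error, as did Nmb and Sst, with 0.08 ± 0.29. Over 7 other settings the Nppb minus Sst value ranged from 0.81 to 0.87 and the Nts minus Npr2 value from 1.87 to 1.99. Settings that only change the factor, spike-in scaling among them, leave these values unchanged by construction. Other pairs moved more under the rest. Sst minus Npr3 ranged from 0.05 to 0.75, Nmb minus Npr3 from 0.08 to 0.79, and Grpr minus Nppb turned sign, from -0.35 to 0.06.

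**Figure D3:**
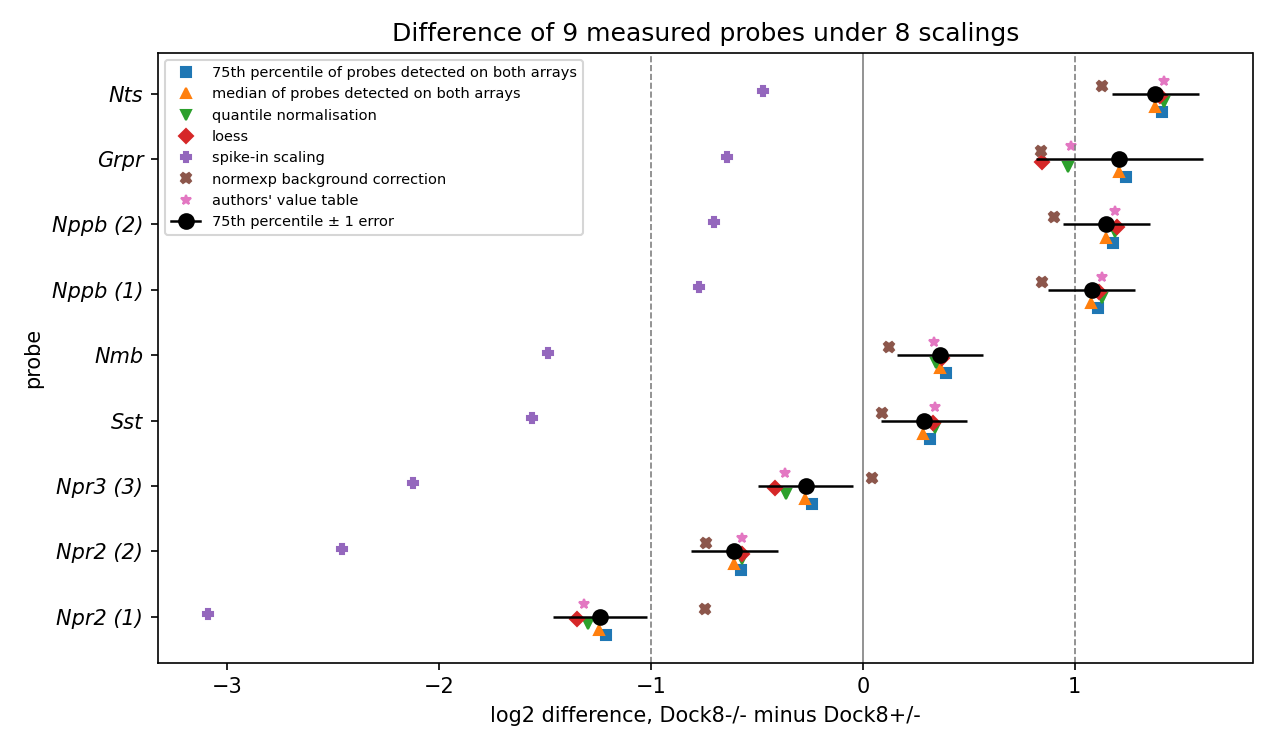
Log2 difference, Dock8-/- minus Dock8+/-, of the 9 measured probes, with the 75th-percentile value and its error in black and 7 other settings in colour. Nts is highest and the Npr2 probes are lowest in each of these settings, spike-in scaling moves every probe below 0, and normexp brings Npr3 to 0.04.

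The sign of the single values does depend on that factor. On the scale of 8 spike-in transcripts, which were brighter on the Dock8-/- array by 0.48 to 1.03, every gene shifted by -1.85. Nppb then lay at -0.70, Nts at -0.47, Sst at -1.56, Nmb at -1.49 and Npr2 at -2.46. The labels do not say how much spike-in was added per amount of RNA.

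Genes around these peptides were read from lists of their pathways. Of 12 other genes of natriuretic peptide signalling, 8 were measured, with a median of 0.01 and 0 past 2-fold in either direction. The protein kinase genes Prkg1 and Prkg2, which act on the cyclic GMP that Npr1 and Npr2 make, lay at 0.07 and -0.04. The cyclic GMP phosphodiesterase genes Pde2a, Pde5a and Pde9a lay at -0.23, 0.21 and -0.25. Furin, a precursor protease, had a difference of 0.55, which was -0.14 under quantile normalisation and -0.11 in the authors' value table. Mme, encoding the peptide-degrading enzyme neprilysin, lay at 0.65 on its brightest probe, with other probes down to -0.95. The brighter probe of Ide, encoding insulin-degrading enzyme, gave -0.14 and the dimmer one 0.86. Signs also turned under normexp for Prkg2 (0.16), Pde5a (-0.89) and Pde9a (0.12), and under loess for Pde5a (-0.05). Nppc, encoding the ligand of Npr2, was measured in Dock8-/- only, by its 1 probe, with 24.6 there and 15.5 on the Dock8+/- array. Its bound was 2.97-fold higher on the 75th-percentile scale. The bound leaves out spot error and lies close to the floor. The lowest signal well above background was 16.1 in Dock8-/- and 17.4 in Dock8+/-. This bound of 1.57 on the log2 scale is smaller than the spike-in shift of -1.85, so it gives no direction on the spike-in scale. Nppa and Corin were read on the Dock8+/- array only, and Ostn on neither.

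Somatostatin and neurotensin receptor genes had small differences. Of 6 genes of the somatostatin system 5 were measured, with a median of 0.27. Sstr1, Sstr3, Sstr4 and Sstr5, which encode somatostatin receptors, lay at 0.55, 0.05, 0.48 and 0.27, and the related peptide gene Cort at -0.09. Among these, Sstr3 was -0.13 under quantile normalisation, -0.22 under loess and -0.13 in the authors' value table, and Cort was 0.25 under normexp. The dimmer Sstr5 probe lay at 0.91. The probes of Sstr1, Sstr3 and Sstr4 were dim, with 39.3, 32.3 and 33.8 in Dock8-/- and 56.0, 65.3 and 50.7 in Dock8+/-. Sstr2 was measured on neither array. In the neurotensin system 4 of 5 genes were measured, with a median of 0.27. Ntsr2, a neurotensin receptor gene, lay at 0.51, while Ntsr1 was read on neither array. Sort1, encoding the sorting receptor sortilin, lay at 0.02 (-0.14 under normexp), with its other probes up to 0.71. Nln, encoding the neurotensin-cleaving protease neurolysin, read 170 in Dock8-/- and 103 in Dock8+/-. It was 3.43-fold higher on its brightest probe, and its probes ranged from 0.97 to 1.78. For Thop1, encoding a related protease, the brighter probe gave -0.76 and the dimmer one 2.50, so the direction depends on the probe. Brs3, the third receptor of the bombesin family, was read on neither array.

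Genes for enzymes that turn peptide precursors into peptides were higher in the Dock8-/- sample by less than 2-fold on the brightest probe of each, on the 75th-percentile scale, and lower on the spike-in scale. All 5 listed genes were measured, with a median of 0.44. The convertase genes Pcsk1 and Pcsk2 lay at 0.49 and 0.50, Cpe, encoding the carboxypeptidase that trims basic ends, at 0.44, Pam, which amidates peptides, at 0.33, and Scg5, encoding a chaperone of Pcsk2, at 0.16. The other Pcsk2 probe lay at 1.07, past 2-fold, probes of Pam ranged from -0.48 to 0.71, and Scg5 was -0.07 under normexp. Markers of the itch neuron class that contains Nppb, members left out, had a median of 0.74 over 9 of 10 genes, with 1 of 9 genes at least 2-fold higher, against 9.08% of all measured genes, and 0 lower. That gene, Htr1f, encodes a serotonin receptor and lay at 1.03, but at 0.87 under quantile normalisation, 0.76 under loess, 0.83 under normexp and 0.88 in the authors' value table. Il31ra and Osmr, the chains of the IL-31 receptor, lay at 0.83 and 0.87 on their brightest probes. Cysltr2, a leukotriene receptor gene, lay at -0.59 (-0.03 under normexp) and Trpv1, the capsaicin receptor gene, at -0.70. The count past 2-fold depends on the probe. Probes ranged from 0.70 to 1.53 for Il31ra and from 0.87 to 1.94 for Osmr. Among the other markers of this class, Trpa1 ranged from 0.21 to 1.38 and Plcb3 from -1.47 to 0.04.

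**Figure D4:**
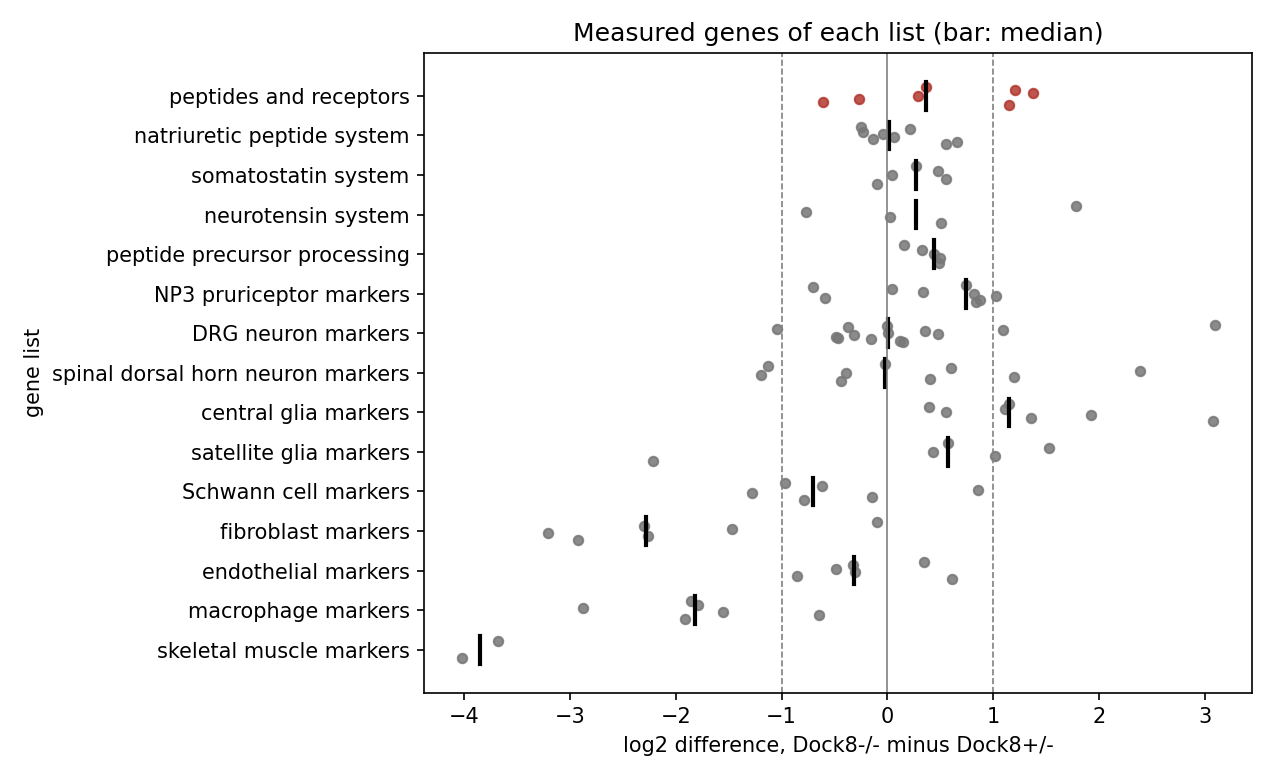
Log2 difference, Dock8-/- minus Dock8+/-, of each measured gene (points) by list, with the list median as a bar and dashed lines at 2-fold. The 7 peptide and receptor genes (red) spread from -0.61 to 1.38, precursor-processing genes, each by its brightest probe, lie together above 0 on this scale (below it with spike-ins, and Scg5 also with normexp), and fibroblast, macrophage and muscle markers lie far below 0.

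The label of the tissue was checked against markers, and the samples also differed in markers of other cells. All 14 DRG neuron markers were measured on both arrays, with a median difference of 0.00 on brightest probes (-0.22 under normexp). A pair of genes was past 2-fold higher (Pou4f1 and Scn9a), and the summed scaled signal was 1366 in Dock8-/- and 1410 in Dock8+/-. Probes of Pou4f1 ranged from 0.09 to 3.09, so its size depends on the probe. Dimmer probes of Prph, Nefm, Nefh, Avil, Scn10a and Rbfox3 were lower, down to -1.37 for Nefm. Those of Nefl and Isl1 were higher, up to 0.007 and 0.79. Markers of central glia had a median of 1.15 over 7 of 7 genes, of which 5 were at least 2-fold higher, and sums of 59.2 in Dock8-/- and 15.2 in Dock8+/-, with Gfap 8.42-fold higher. Satellite glia markers had a median of 0.58 over 5 of 5 genes, with Sox2 and Kcnj10 past 2-fold higher and Fabp7 4.63-fold lower, and sums of 105 in Dock8-/- and 125 in Dock8+/-. Markers of spinal dorsal horn neurons, cells that also make Sst, Nts, Grp and Grpr in the mouse, had a median of -0.02 over 9 of 9 genes, with Gad2 and Lbx1 past 2-fold higher and Slc6a5 and Zic1 past 2-fold lower, and sums of 22.1 in Dock8-/- and 32.7 in Dock8+/-. Fibroblast markers had a median of -2.28 over 6 of 6 genes, 5 of them past 2-fold lower, with sums of 255 in Dock8-/- and 835 in Dock8+/-. Macrophage markers had a median of -1.82 over 6 of 6 genes, 5 of them past 2-fold lower, with sums of 30.04 in Dock8-/- and 126 in Dock8+/-. Schwann cell markers had a median of -0.70 over 6 of 6 genes, 1 of them (Prx) past 2-fold lower, with sums of 463 in Dock8-/- and 581 in Dock8+/-. Endothelial markers had a median of -0.31 over 6 of 7 genes, 0 of them past 2-fold, with sums of 14.6 in Dock8-/- and 17.1 in Dock8+/-. Skeletal muscle markers had a median of -3.85 over 2 measured genes of 5, both past 2-fold lower, and the other 3 were lower by their bounds, with sums of 1.18 in Dock8-/- and 15.7 in Dock8+/-. Of the markers of these cells, Tek, Ckm, Acta1 and Mylpf gave no signal well above background in Dock8-/-. The part that these cells had in the values of Npr2, Npr3, Nppb and Nts was not tested. In such samples, fewer cells of a type and less RNA per cell cannot be told apart.

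The deleted gene gave no check of the labels. Of 5 Dock8 probes, 1 gave a signal well above background, in Dock8+/- only (6.87 in Dock8-/- and 20.5 in Dock8+/-), and the labels do not name the deleted part, outside which a probe checks nothing. The share of all probes with a signal well above background was 50.7% in Dock8-/- and 56.9% in Dock8+/-.

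The proximal promoters of Nppb, Nts and Sst are shown because the first pair passed 2-fold and Sst, of the same neuron class as Nppb, did not. Each window runs from 250 bases before the RefSeq start to 50 after it (GRCm38.p6), in the direction of the gene. Capitals mark matches to TGACG (the first 5 letters of the cAMP response element TGACGTCA), TGANTCA (the AP-1 site) and TTCNNNGAA (a STAT site), on both strands, and to TATAAA on the strand of the gene.
Nppb (chr4:147985650-147985949, plus strand): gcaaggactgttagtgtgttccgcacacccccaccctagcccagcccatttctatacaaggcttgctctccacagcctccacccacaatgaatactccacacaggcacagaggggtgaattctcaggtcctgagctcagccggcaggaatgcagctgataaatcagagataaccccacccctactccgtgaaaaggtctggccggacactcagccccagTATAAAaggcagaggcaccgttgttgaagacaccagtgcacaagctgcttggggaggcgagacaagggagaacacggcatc
Nts (chr10:102490369-102490668, minus strand): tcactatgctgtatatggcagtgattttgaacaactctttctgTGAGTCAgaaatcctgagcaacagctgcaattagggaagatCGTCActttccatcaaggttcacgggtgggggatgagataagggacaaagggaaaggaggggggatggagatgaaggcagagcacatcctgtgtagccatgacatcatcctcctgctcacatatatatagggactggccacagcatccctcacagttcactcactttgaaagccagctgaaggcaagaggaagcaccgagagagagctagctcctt
Sst (chr16:23890795-23891094, minus strand): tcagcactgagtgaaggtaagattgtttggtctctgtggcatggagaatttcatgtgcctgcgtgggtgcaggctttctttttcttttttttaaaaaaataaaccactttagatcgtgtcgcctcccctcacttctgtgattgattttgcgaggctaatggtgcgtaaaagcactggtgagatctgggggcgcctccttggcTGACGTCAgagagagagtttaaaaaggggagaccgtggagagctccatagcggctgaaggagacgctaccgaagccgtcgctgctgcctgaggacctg
Sst held the whole TGACGTCA at position -48, which 1.79% of 32851 promoter windows of this length hold. Nts held TGAGTCA, a match to TGANTCA, at -207 and CGTCA, the reverse strand of TGACG, at -166. TGANTCA was present in 7.81% of all windows and TGACG in 20.8%. Nppb held TATAAA at -31, as did 8.32% of windows anywhere in their length. None of these 3 windows held TTCNNNGAA, which 8.30% of all windows hold. Among the windows not shown, that of Grpr, which also passed 2-fold but close to the floor, held TGACG at -80. The window of Npr3, which did not pass 2-fold, held TGACG at -50. A match is a description of letters and not a site of binding.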

How the data were processed

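The authors deposited scanner files of spot intensity (linear scale), extracted with Agilent Feature Extraction (version 10.7.1.1 per the file headers, 9.5.1.1 per the submitters' processing notes). They also deposited a p-value of each spot against its background, which was not used, and a value table of intensities on a linear scale. There, 98.9% of the sorted values matched between the columns (tolerance 0) and each column had a median of 27.9, and its log2 values correlated with those of the scanner files at 0.999 or more, so it is quantile normalised, not centred, and runs in the direction of intensity. Both arrays lay on 1 slide, per the file headers. Processed spot signals were put on the log2 scale, averaged per probe, and set to the 75th percentile of non-control probes of their array. Spots marked as non-uniform (1 in Dock8-/-, 3 in Dock8+/-) were dropped, and 0 were saturated. Probes were named through RefSeq accessions of GRCm38.p6 (32985 probes), by symbol (10228), by an older symbol (519) or by the name in the file (12869), and members by the name in the file. A gene took its probe with the highest mean, and was measured where both arrays flag it as well above background. Where only 1 array measured a gene, the difference is a bound against the higher of the dim value and the lowest signal well above background on the other array. Spot error was 0.0535 on the Dock8-/- and 0.0438 on the Dock8+/- array (root mean square SD of log2, 299 probes with 10 spots). The number of arrays limits the precision, and no comparison has a test.

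All 10 members were named, with every probe, as were all genes of the natriuretic peptide, somatostatin, neurotensin, bombesin and precursor-processing lists. Marker genes, those of the itch neuron class included, are given as list medians and counts, with examples chosen after their values were seen. A result for 1 marker gene is not reported here. With 2 arrays no likeness of pattern can be measured, so no gene is named for resembling a member. The members and lists were chosen with earlier results of these data known. The calculation was tested on simulated data in which all probes of a gene changed alike. That checks the arithmetic, and not the choice of scaling or the spread between probes of a gene. Alternatives were run with limma 3.58.1 (normexp with an offset of 50, loess with a span of 0.3) in R 4.3.3 and with Python 3.11.15. Exon annotation of mm9, the build of the probe positions, was not used here. Promoter sequences are from RefSeq, matched by symbol.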

Additional observations from a re-analysis of the deposited data

How the results depend on the processing

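No paired analysis was possible because there is a single array of each genotype, which also leaves no replicate to omit and no test. Against 3 members at least 2-fold higher and 0 lower, normexp background correction gave 1 higher and spike-in scaling 0 higher and 4 lower. Quantile normalisation, loess and the authors' value table each gave 2 higher. A 1.5-fold size gave 1 lower and a 3-fold size 0 higher. With no filter on dim probes, 4 of 10 members were higher. The members' median of 0.36 was 0.12 under normexp, -1.49 under spike-in scaling and 0.97 with no filter on dim probes. Spike-in scaling turned the 2-fold higher values of the Nppb probes to -0.77 and -0.70, of Nts to -0.47, of Grpr to -0.64, of Nln to -0.072, of Htr1f to -0.82 and of the central glia median to -0.70, since it lowers every gene by the same amount. Under the other 6 settings the ranges were 0.901 to 1.198 for the 3′ Nppb probe, 0.85 to 1.13 for the 5′ probe, 1.13 to 1.42 for Nts, 0.09 to 0.34 for Sst, 0.12 to 0.39 for Nmb, 0.84 to 1.24 for Grpr, -0.74 to -0.57 for the 3′ and -1.35 to -0.75 for the 5′ Npr2 probe and -0.41 to 0.04 for Npr3.

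Over all genes, 1694 were higher and 1311 lower, which became 703 higher and 865 lower with normexp, 57 higher and 16293 lower with spike-ins, 3890 higher and 3147 lower at 1.5-fold, 486 higher and 424 lower at 3-fold, and 5437 higher and 2758 lower without a filter on dim probes. Measurement on at least 1 array gave 2578 lower. Higher genes made up 56.4% of these, with loess 45.8%, with normexp 44.8%, with spike-ins 0.349% and with measurement on at least 1 array 46.2%. Sizes, filters and the spike-in shift of every gene change counts by construction. The cause of the other changes, and of the size of the spike-in shift, was not tested. List medians, single list genes and differences between members were recomputed as alternatives added after seeing the data. Grp, Npr1 and Nmbr stay unmeasured at this signal over background.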
